A study of Mus musculus with 12 samples.

Results

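The 90 potassium channel genes described here are the genes of the count table whose symbol begins with Kcn, followed by letters and a number, without Kcnj1 and Kcnn4. They are 90 of 54532 genes in the table. The rule used no measured value, though it was chosen with earlier results of these data known. RNA-seq counts came from whole kidneys of 12 mice aged 18 days, kept on a C57BL/6 background (C57BL/6 J in the study's methods), in 4 groups of 3. Noncystic mice were Pkd1 RC/+, which here means 1 hypomorphic RC allele beside a floxed allele without Cre, and carried either Pkd2+/+ or Pkd2Δ17/Δ17. Cystic mice were Pkd1 RC/-, made with KspCre; Pkd1 RC/F, and likewise carried either Pkd2+/+ or Pkd2Δ17/Δ17. The Δ17 allele lacks the miR-17 binding motif in the 3′-UTR of Pkd2. All 12 mice therefore carried the RC allele of Pkd1, controls included. KspCre is driven by the cadherin 16 promoter, which is active in kidney tubules, so that interstitial, vascular and blood cells of a cystic kidney keep the floxed allele.

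Potassium channels let potassium ions pass down their gradient through a pore lined by a short signature sequence, the selectivity filter. In tubule cells, the sodium pump loads potassium into the cell, and basolateral potassium channels return it and set the membrane voltage that drives transport. Voltage-gated channels (Kcna to Kcnd, Kcnq and Kcnh) have 1 pore loop per subunit, inward rectifiers (Kcnj) also have 1 on a shorter subunit, and members of the Kcnk family have a pair of loops per subunit. The remaining members are channels gated by calcium or sodium (Kcnma, Kcnn and Kcnt), with Kcnu1 counted in their family by its symbol only. Besides these there are silent subunits that modify Kv channels (Kcnf, Kcng, Kcns and Kcnv), and auxiliary proteins without a pore (Kcnab, Kcne, Kcnip and Kcnmb).

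The filter was read from the coding sequences to show what joins the members besides the name. The coding sequence of 1 transcript per gene (GENCODE M21, GRCm38) was searched in frame for glycine, tyrosine or phenylalanine, and glycine codons, spelled GGNTATGGN, GGNTACGGN, GGNTTTGGN or GGNTTCGGN, with a threonine or serine codon lying 2 codons before the first glycine. The 6 genes below were chosen because results turn on them. Each line gives 27 bases of coding strand, 5′ to 3′, with the 9 filter bases in capitals.
Kcnj16: accaccattGGATACGGTtaccgctgt
Kcnj11: gtgaccattGGTTTCGGCgggcgcatg
Kcnk5: accaccatcGGTTATGGCaatgtggct
Kcnh2: accagcgtgGGCTTTGGCaatgtctct
Kcnn1: ttgtccattGGCTATGGAgacatggtg
Kcnf1: accacagtgGGCTATGGTgacatctac

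These windows lie in coding exons, at chr11:111024901-111024927 on the forward strand (Kcnj16), chr7:46099487-46099513 on the reverse strand (Kcnj11), chr5:24325546-24325572 on the reverse strand (Kcnh2), chr8:70850648-70850674 on the reverse strand (Kcnn1) and chr12:17175052-17175078 on the reverse strand (Kcnf1). The window of Kcnk5 is joined from exons 2 and 3 and runs from chr14:20145106-20146510 on the reverse strand, the intron included. All 75 pore-forming and modifier members held a match and none of the 15 auxiliary members did. Among 21526 genes with a complete coding sequence, 571 (2.65%) held one. Of the 75, 64 held exactly 1 match and 11 held more, and all 11 were among the 14 Kcnk genes, whose subunits have a pair of pore loops. In the windows printed, the middle codon of Kcnj11 and Kcnh2 is for phenylalanine and that of the other 4 genes is for tyrosine. Only the first match of a gene was extracted. Later matches of the 11 Kcnk genes, Kcnk5 among them, were not classed. Of the 73 genes whose windows were extracted, 57 had a tyrosine codon in this first match and 16 a phenylalanine codon, and the 16 included all 8 Kcnh genes. These matches are a description of the sequences and were set against no measurement.

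An exon of 28 members overlaps an exon of another gene in the same annotation, and the strand setting behind the counts is not given in the sources used here, so reads of the 2 genes cannot be told apart. Among genes named below, the overlap on the opposite strand is 333 bases for Kcnj15, 121 for Kcnq1 (with Kcnq1ot1), 179 for Kcnk1, 229 for Kcnk3, 132 for Kcnn1, 165 for Kcnd3, 1016 for Kcnma1, 267 for Kcnip4, 696 for Kcnh7 (with Gca) and 2355 for Kcna6. Kcnab2 shares 125 bases with a gene on its own strand. Kcnj16, Kcnk5, Kcnf1, Kcnip2, Kcnt1, Kcnh2 and Kcnj11 have no such overlap.

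Total counts per mouse were 18800307 to 24453033. Levels are given as CPM, counts per 1000000 reads after TMM scaling of the library sizes, in which 1 count is worth about 0.05 CPM. All 90 members had at least 1 read, 82 passed the cutoff on low counts, and the 8 that did not (Kcna4, Kcna10, Kcnj6, Kcnk15, Kcnk16, Kcnk18, Kcns2 and Kcnv1) had at most 9 reads each in all mice together. Members took 0.126 to 0.163% of the reads of noncystic Pkd2+/+ kidneys, 0.155 to 0.168% of noncystic Pkd2Δ17/Δ17 kidneys, 0.103 to 0.121% of cystic Pkd2+/+ kidneys and 0.124 to 0.126% of cystic Pkd2Δ17/Δ17 kidneys. Pkd2 itself was at 194 to 219 CPM in noncystic and 213 to 233 CPM in cystic Pkd2+/+ kidneys, and at 270 to 286 CPM and 307 to 337 CPM in the Δ17/Δ17 kidneys. In 2 cystic kidneys, adrenal genes stood out: the summed CPM of Cyp11b1, Cyp11b2 and Star, enzymes and a transporter of steroid synthesis, was 198 in mouse 30 (Pkd2Δ17/Δ17) and 27.6 in mouse 27 (Pkd2+/+), against 3.63 to 6.66 in the other 10 mice.

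Few genes supplied most of the reads of the 90 members. Kcnj1 and Kcnn4 are outside the rule, so these shares are not shares of all potassium channel mRNA of the kidney. Kcnj16 (Kir5.1) and Kcnj15 (Kir4.2), inward rectifiers that are known from basolateral membranes of distal and proximal tubules, held 54.0% of all reads counted in members, and with Kcnk1 (TWIK-1) and Kcnj10 (Kir4.1), the usual partner of Kcnj16, they held 69.7%. Only 47 of 90 members averaged at least 1 CPM over the 12 mice and 15 averaged at least 10 CPM. Per kilobase of exon, the order in noncystic Pkd2+/+ kidneys was Kcnj16 (123 CPM per kb), Kcnj15 (66.7), Kcnk1 (54.4), Kcnj10 (18.98), Kcnk5 (16.6), Kcnj8 (13.5), Kcne1 (9.54) and Kcnq1 (9.39). The last pair differ by less than the spread of their CPM within the group, 30.7 ± 3.6 for Kcne1 and 38.4 ± 3.4 for Kcnq1 (SD, n = 3). In cystic Pkd2+/+ kidneys, Kcnk1 (54.2 CPM per kb) stood above Kcnj15 (26.3), and Kcnq1 (16.2) stood above Kcnj10 (14.2).

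The first comparison was between cystic and noncystic kidneys with Pkd2+/+. Cystic kidneys held less mRNA of the leading inward rectifiers and of Kcnk5, and more of Kcnq1 and Kcnh2. Of 82 members tested, 28 passed edgeR's quasi-likelihood test at an adjusted p under 0.05, 9 higher and 19 lower. That is 34.1% of the members against 31.1% of all 24642 genes tested. By direction, 11% of members were higher against 16.9% of all genes, and 23.2% were lower against 14.2%. Among members averaging at least 1 CPM, 24 of 47 (51.1%) were called, against 47% of all such genes. At an unadjusted p under 0.05, 33 of 82 members were found, against 9676 of 24642 genes (39.3%). The groups of 37 of 82 members did not overlap, against 10285 of 24642 genes (41.7%). The median log2 fold change was -0.10 over the members and 0.02 over all genes. With library totals in place of TMM factors, the median of all genes moved to 0.18 and that of the members to 0.06, and the split of calls moved from 9 higher and 19 lower to 10 and 14, and to 12 and 14 with limma-trend.

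**Figure D1:**
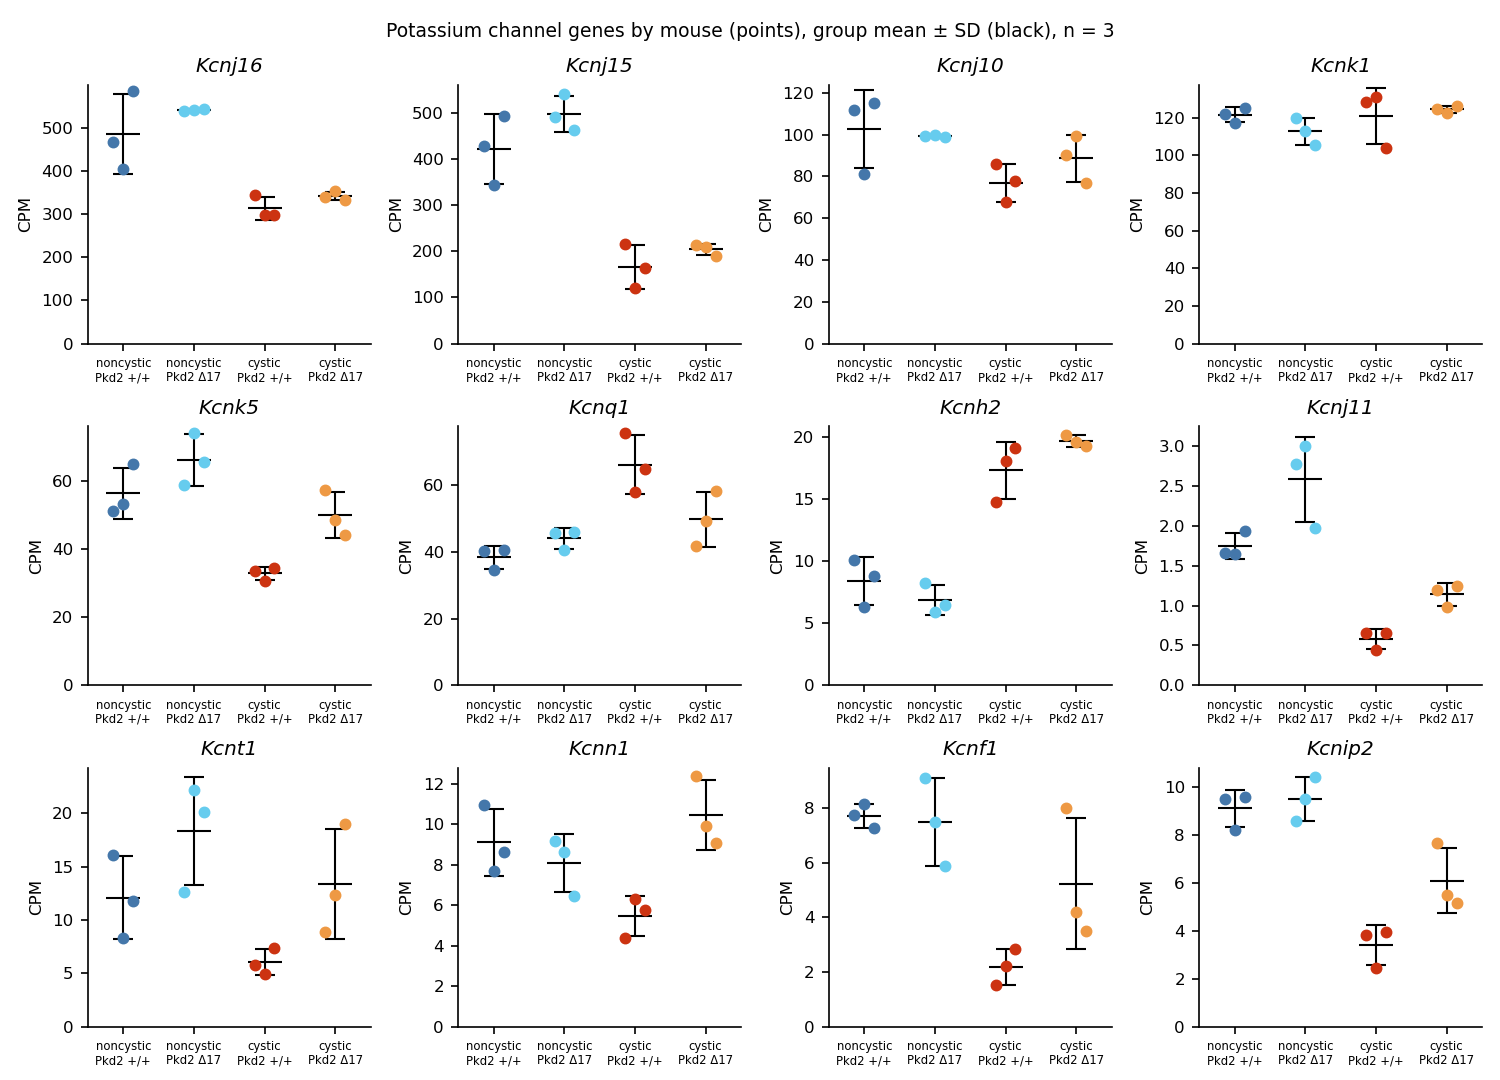
CPM of 12 potassium channel genes in each mouse (points), with the group mean and SD (black, n = 3). The y axes start at 0 and differ between panels. Kcnj16, Kcnj15 and Kcnj11 of the 6 cystic mice lie below all 6 noncystic mice, Kcnh2 lies above them, and Kcnk1 lies between 104 and 131 CPM in all 12.

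Among the inward rectifiers, 6 of 13 tested were lower and 0 were higher in this comparison, and 4 were lower with library totals, where Kcnj10 and Kcnj2 did not pass. The 6 are 46.2% of those tested, against 31.1% of all genes called and 14.2% called lower. Kcnj16 was at 465, 404 and 585 CPM in the noncystic and 345, 297 and 297 CPM in the cystic mice. Each cystic mouse was below each noncystic mouse, a log2 fold change of -0.63 ± 0.11 (SE; edgeR adjusted p = 0.000262). Kcnj15 was at 427, 343 and 493 CPM in the noncystic and 215, 119.5 and 165 CPM in the cystic mice. The groups were again apart, with a log2 fold change of -1.34 ± 0.16 (SE; edgeR adjusted p = 8.78e-06). Kcnj10 was at 112, 81.3 and 115 CPM and 85.7, 67.6 and 77.7 CPM. Its groups overlapped, since 1 cystic mouse was above the lowest noncystic mouse, and its log2 fold change was -0.41 ± 0.12 (SE; edgeR adjusted p = 0.0154). The call for Kcnj10 ended without mouse 19, 21 or 26 (log2 fold change -0.35 to -0.33, edgeR adjusted p up to 0.0749), and with library totals in limma-trend (log2 fold change -0.25, adjusted p = 0.153) or in edgeR (-0.26, adjusted p = 0.124).

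Kcnj11 (Kir6.2) and Kcnj8 (Kir6.1), the pore subunits of ATP-sensitive channels, were both lower. Kcnj11 was at 1.66, 1.65 and 1.93 CPM in noncystic and 0.658, 0.441 and 0.659 CPM in cystic mice, with no overlap and a log2 fold change of -1.56 ± 0.30 (SE; edgeR adjusted p = 0.000579). Kcnj8, known from vascular muscle and pericytes, was at 30.2, 37.01 and 35.96 CPM and 19.9, 25.99 and 20.8 CPM. Its log2 fold change was -0.63 ± 0.13 (SE; edgeR adjusted p = 0.000941). Of the sulfonylurea receptors that surround these pores, Abcc9 also fell, by 0.59 ± 0.20 on the log2 scale (SE; edgeR adjusted p = 0.0349), from 19.1 to 12.7 CPM, and Abcc8 was at 0.66 to 1.03 CPM in group means and did not pass.

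Among the Kcnk genes, 2 of 11 tested were lower and 1 was higher. Called were thus 27.3% of those tested, against 31.1% of all genes, and 18.2% were lower, against 14.2%. Kcnk5 (TASK-2), a channel tied to bicarbonate reabsorption in the proximal tubule, was at 50.99, 53.3 and 64.96 CPM in noncystic and 33.5, 30.6 and 34.4 CPM in cystic mice. The groups did not overlap, and the log2 fold change was -0.78 ± 0.12 (SE; edgeR adjusted p = 5.75e-05). Kcnk6 (TWIK-2) was higher, at 5.09, 3.48 and 4.68 CPM against 7.01, 8.47 and 7.58 CPM, a log2 fold change of 0.79 ± 0.19 (SE; edgeR adjusted p = 0.00432). Kcnk1 did not pass, with 122, 117 and 125 CPM in noncystic and 128, 131 and 104 CPM in cystic mice. Kcnk13 (THIK-1) did not pass either, at 1.61 ± 0.61 and 1.15 ± 0.20 CPM (SD, n = 3).

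Kcnk3 (TASK-1) and Kcnf1 had the largest falls on the log2 scale among the called members, nearly equal at -1.836 and -1.832. Kcnk3 was at 15.3, 31.7 and 15.9 CPM in noncystic and 3.37, 3.43 and 10.9 CPM in cystic Pkd2+/+ mice. The highest of its cystic values came from mouse 27, which carried adrenal transcripts. The log2 fold change was -1.84 ± 0.56 (SE; edgeR adjusted p = 0.0182). Leaving out mouse 27 gave -2.62 (edgeR adjusted p = 0.00414). The call ended without mouse 20, 25 or 26 (log2 fold change -1.57 to -1.43, edgeR adjusted p up to 0.0902).

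In the family of channels gated by calcium or sodium, with Kcnu1 counted in, 4 of 7 members were lower and 0 were higher. The 4 are 57.1% of this small family, against 31.1% of all genes called and 14.2% called lower. Kcnn1 (SK1) and Kcnn2 (SK2), small-conductance calcium-activated channels, had log2 fold changes of -0.74 ± 0.20 and -1.04 ± 0.31 (SE; edgeR adjusted p = 0.00776 and 0.0154). Kcnt1 (Slack) and Kcnt2 (Slick), channels opened by intracellular sodium, had log2 fold changes of -1.003 ± 0.29 and -0.92 ± 0.22 (SE; edgeR adjusted p = 0.0123 and 0.00362). The call ended for Kcnn1 without mouse 19 (log2 fold change -0.58, edgeR adjusted p = 0.0526), for Kcnn2 without mouse 19 or 27 (log2 fold change -0.96 to -0.88, edgeR adjusted p up to 0.0729) and for Kcnt1 without mouse 19 (log2 fold change -0.74, edgeR adjusted p = 0.0839). Kcnma1, the large-conductance BK channel of the distal nephron, did not pass and was at 3.12, 2.97 and 3.15 CPM in noncystic and 1.86, 3.13 and 3.201 CPM in cystic mice.

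**Figure D2:**
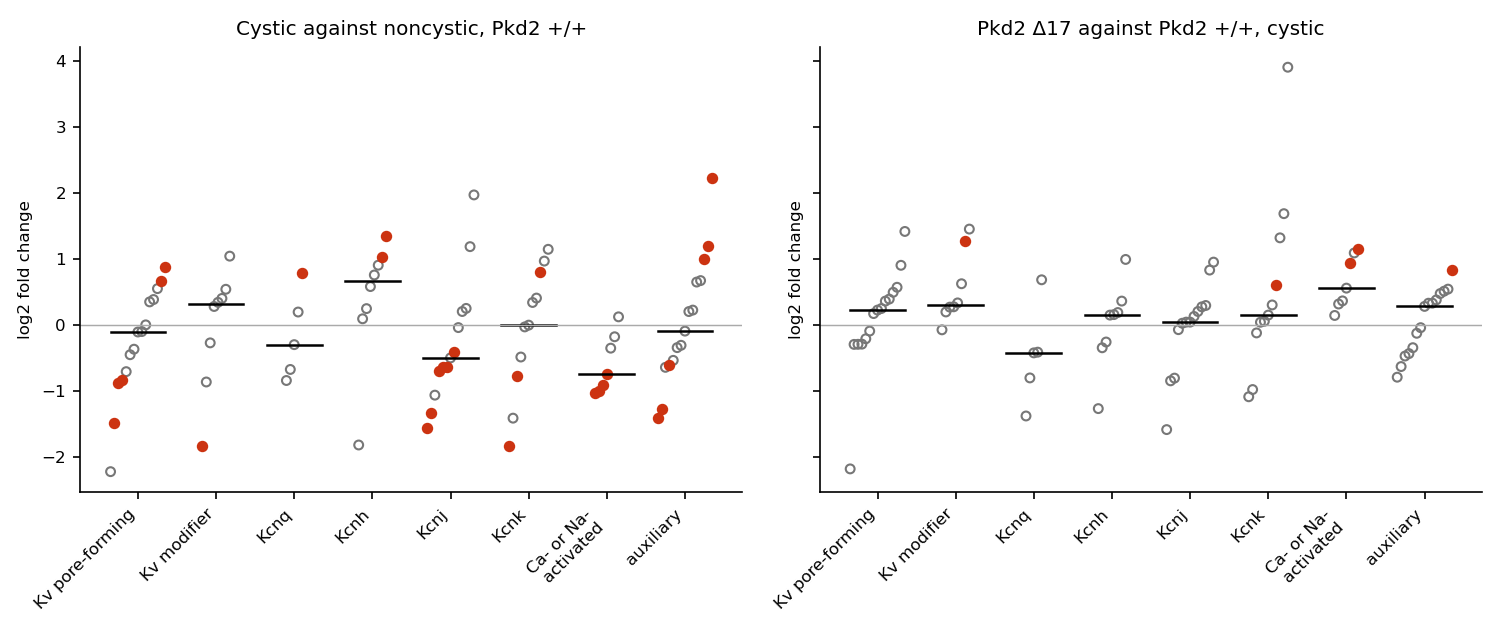
Log2 fold change of each tested member by family for cystic against noncystic kidneys with Pkd2+/+ (left) and for Pkd2Δ17/Δ17 against Pkd2+/+ in cystic kidneys (right). Filled points passed edgeR's test (adjusted p under 0.05), open points did not, and bars are family medians. On the left, 6 filled Kcnj points and 4 filled points of the calcium- or sodium-activated family are all below 0; on the right, the 5 filled points are all above 0.

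Voltage-gated subunits moved in both directions. Kcnq1 (KvLQT1), which forms a slow channel with Kcne1, was at 40.2, 34.5 and 40.5 CPM in noncystic and 75.8, 57.9 and 65.1 CPM in cystic mice. Every cystic mouse was above every noncystic one, with a log2 fold change of 0.79 ± 0.12 (SE; edgeR adjusted p = 8.25e-05). The values of its partner Kcne1 overlapped, at 34.8, 29.1 and 28.03 CPM and 47.5, 29.9 and 29.8 CPM, and did not pass. Kcnh2 (ERG1), a rapid delayed rectifier, was at 10.1, 6.33 and 8.85 CPM in noncystic and 14.7, 18.1 and 19.2 CPM in cystic mice. Its log2 fold change was 1.03 ± 0.17 (SE; edgeR adjusted p = 0.000129). Kcnh1 (EAG1) was also called, at 0.23 to 0.41 CPM against 0.57 to 0.98 CPM, with a log2 fold change of 1.34 ± 0.49 (SE; edgeR adjusted p = 0.0479), and its call ended without mouse 19, 20, 21, 25 or 26 (log2 fold change 1.14 to 1.54, edgeR adjusted p up to 0.156).

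Kcnf1 (Kv5.1), a silent subunit that modifies Kv2 channels, fell from 7.74, 8.15 and 7.27 CPM to 1.51, 2.203 and 2.82 CPM. This is a log2 fold change of -1.83 ± 0.29 (SE; edgeR adjusted p = 0.000119) with no overlap. Kcna5 (Kv1.5) was lower by the same test, at 5.37 ± 0.60 and 2.91 ± 0.25 CPM (SD, n = 3), with -0.88 ± 0.23 as its log2 fold change (SE; edgeR adjusted p = 0.00785). Kcna1 (Kv1.1), known from the distal convoluted tubule, was at or below 0.36 CPM in all mice and did not pass.

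Partners of Kv4 channels did not move together. The pore subunit Kcnd1 (Kv4.1) was higher, at 1.25, 1.996 and 1.48 CPM against 3.41, 2.94 and 2.31 CPM, with a log2 fold change of 0.88 ± 0.25 (SE; edgeR adjusted p = 0.0128), and its call ended without mouse 19 or 25 (log2 fold change 0.74, edgeR adjusted p up to 0.0661). Of the Kcnip genes, calcium-binding proteins that attach to Kv4 channels, Kcnip1 and Kcnip4 were higher and Kcnip2 and Kcnip3 were lower. Kcnip2, best known from heart muscle, was at 9.502, 8.21 and 9.56 CPM in noncystic and 3.83, 2.45 and 3.95 CPM in cystic mice, a log2 fold change of -1.41 ± 0.20 (SE; edgeR adjusted p = 4.07e-05). Kcnip1 was a low gene, at 0.104, 0.171 and 0.102 CPM and 0.387, 1.08 and 0.377 CPM, with a log2 fold change of 2.23 ± 0.60 (SE; edgeR adjusted p = 0.00903) and a call that ended without mouse 26 (log2 fold change 1.57, edgeR adjusted p = 0.0731). Kcnip4, at 0.23 to 0.66 CPM against 0.69 to 1.13 CPM, had a log2 fold change of 1.19 ± 0.43 (SE; edgeR adjusted p = 0.0460), and its call ended without mouse 19, 20, 25 or 27 (log2 fold change 0.88 to 1.10, edgeR adjusted p up to 0.185).

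The other auxiliary subunits followed no single direction. Kcne4, an inhibitor of Kcnq1 channels, was at 15.99, 14.8 and 15.9 CPM in noncystic and 6.62, 8.57 and 4.096 CPM in cystic mice, a log2 fold change of -1.28 ± 0.24 (SE; edgeR adjusted p = 0.000477). Kcnab2, a beta subunit of Kv1 channels, was at 3.01, 3.76 and 3.103 CPM and 5.11, 8.17 and 6.45 CPM, a log2 fold change of 0.996 ± 0.24 (SE; edgeR adjusted p = 0.00461). Kcne2, Kcne3, Kcnmb1, Kcnmb2 and Kcnmb4 did not pass, nor did the inward rectifier Kcnj13. Of these, Kcnmb1 had the highest group means, 2.24 ± 0.90 CPM in noncystic and 3.53 ± 0.37 CPM in cystic mice (SD, n = 3). The other 5 called members were chosen for naming after their values were seen. Kcna2, Kcna6, Kcnj2 and Kcnip3 were lower, with log2 fold changes of -1.48, -0.84, -0.71 and -0.61, and Kcnc2 was higher (0.66). All 5 lost their call (edgeR adjusted p up to 0.158, 0.144, 0.169, 0.0925 and 0.147) when single mice were left out: mouse 20, 21, 26 or 27 for Kcna2, mouse 19, 20, 21 or 25 for Kcna6, mouse 19, 20, 25 or 27 for Kcnj2, mouse 21 or 25 for Kcnip3 and mouse 20, 21, 25 or 27 for Kcnc2.

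Of the 28 calls, 14 held under every alternative that tested them: Kcna5, Kcnab2, Kcne4, Kcnf1, Kcnh2, Kcnip2, Kcnj8, Kcnj11, Kcnj15, Kcnj16, Kcnk5, Kcnk6, Kcnq1 and Kcnt2. Markers of cell types differed in the same comparison. All 7 proximal tubule markers were lower (summed CPM 6421 to 8201 in noncystic and 2291 to 3507 in cystic kidneys), as were all 4 markers of the distal convoluted tubule (1037 to 1520 against 255 to 543). Of 5 thick ascending limb markers, 3 were lower and 1 higher (4200 to 4901 against 1687 to 2353). All 6 macrophage markers were higher (121 to 127 against 283 to 392). Principal cell markers were higher in 3 of 6, intercalated cell markers lower in 3 and higher in 1 of 5, podocyte markers lower in 4 and higher in 1 of 5, endothelial markers lower in 3 of 5, smooth muscle and pericyte markers higher in 3 of 6, and fibroblast markers higher in 3 and lower in 1 of 5. Lymphocyte markers were higher in 2 of 6, neuron and glia markers higher in 3 of 7, red blood cell markers lower in 3 of 3, adrenal markers called in 0 of 6 and skeletal muscle markers in 0 of 3 tested. In bulk tissue, fewer cells of a type cannot be told apart from less RNA per cell, and the part of these marker shifts in the channel results was not tested.

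Genes that work with potassium channels also differed. Of 43 partner and regulator genes, 42 were tested, and 10 were higher and 16 lower in this comparison. Over all genes tested, 31.1% were called, 16.9% higher and 14.2% lower, and 47% were called among those averaging at least 1 CPM. Among the sodium pump genes and their FXYD subunits, Atp1b1, Atp1b2 and Fxyd2 were lower and Fxyd4 and Fxyd5 were higher. Of the LRRC proteins that lower the voltage needed to open BK channels, Lrrc55 and Lrrc38 were higher and Lrrc52 was lower. Of 11 kinase and ligase genes acting on channels, 3 were higher (Stk39, Src and Nedd4l) and 4 were lower (Wnk1, Sgk1, Wnk4 and Klhl3). Of the potassium-chloride cotransporters, Slc12a7 was lower and Slc12a4 was higher, and of the proton pumps that take up potassium, Atp12a was higher and Atp4a lower. Hsd11b2, which protects the mineralocorticoid receptor from glucocorticoids, was higher and Tsc22d3 lower. Amigo1, a partner of Kv2, was lower among 3 partners of Kv4 and Kv2, and 0 of 4 related cation channels were called.

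The second comparison asked how the miR-17 motif deletion in Pkd2 changed channel genes of cystic kidneys. In all, 5 members were higher in cystic Pkd2Δ17/Δ17 than in cystic Pkd2+/+ kidneys and 0 were lower. These are Kcnk5, Kcnn1, Kcnf1, Kcnip2 and Kcnt1, which make up 6.1% of the 82 tested, against 2.23% of all genes tested (1.19% higher and 1.04% lower). At an unadjusted p under 0.05, 18 of 82 members were found, against 3532 of 24642 genes (14.3%). The groups of 19 of 82 members did not overlap, against 4678 of 24642 genes (19%). Among members averaging at least 1 CPM, 5 of 47 (10.6%) were called, against 3.52% of such genes. The median log2 fold change was 0.20 over the members and 0.00076 over all genes.

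Kcnk5 rose from 33.5, 30.6 and 34.4 CPM in cystic Pkd2+/+ to 57.3, 48.5 and 44.2 CPM in cystic Pkd2Δ17/Δ17 mice. The groups were apart, with a log2 fold change of 0.61 ± 0.12 (SE; edgeR adjusted p = 0.0140). Kcnn1 rose from 4.37, 6.31 and 5.74 CPM to 12.4, 9.93 and 9.09 CPM, also without overlap, a log2 fold change of 0.94 ± 0.19 (SE; edgeR adjusted p = 0.0194). Kcnf1 rose from 1.51, 2.203 and 2.82 CPM to 7.98, 4.21 and 3.51 CPM, with 1 mouse well above the other 2 of its group, a log2 fold change of 1.27 ± 0.29 (SE; edgeR adjusted p = 0.0323). Kcnip2 rose from 3.83, 2.45 and 3.95 CPM to 7.64, 5.48 and 5.15 CPM, a log2 fold change of 0.83 ± 0.20 (SE; edgeR adjusted p = 0.0423). Kcnt1 rose from 5.81, 4.94 and 7.34 CPM to 8.85, 12.4 and 18.95 CPM, a log2 fold change of 1.15 ± 0.28 (SE; edgeR adjusted p = 0.0443), the highest of these mice being mouse 30.

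Each of the 5 calls ended when some of the mice were left out singly. All 5 ended without mouse 29, and 1 was left without mouse 27 or without mouse 28. By gene, the call ended for Kcnk5 without mouse 28 or 29 (log2 fold change 0.50 to 0.63, edgeR adjusted p up to 0.0875), for Kcnn1 without mouse 27, 28 or 29 (log2 fold change 0.80 to 0.98, edgeR adjusted p up to 0.126), for Kcnf1 without mouse 25, 26, 27, 28 or 29 (log2 fold change 0.83 to 1.504, edgeR adjusted p up to 0.211), for Kcnip2 without mouse 26, 27, 28 or 29 (log2 fold change 0.63 to 0.94, edgeR adjusted p up to 0.239) and for Kcnt1 without mouse 25, 26, 27, 29 or 30 (log2 fold change 0.81 to 1.31, edgeR adjusted p up to 0.145). Without the 2 mice with adrenal transcripts, 4 members were called, Kcnt1 being lost. When the noncystic mice were left out of the fit, 1 member (Kcnk5) was called. The direction of the 5 held in every alternative run. The lowest log2 fold changes were 0.50 for Kcnk5, 0.80 for Kcnn1, 0.83 for Kcnf1, 0.63 for Kcnip2 and 0.81 for Kcnt1. The alternatives refit the same mice, and the cystic groups of all 5 genes did not overlap. A kept direction was therefore largely fixed beforehand.

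The same 5 genes were lower in the cystic Pkd2+/+ group than in the noncystic one. Both comparisons use those cystic mice, so the levels are set side by side. As group means, Kcnk5 ran from 56.4 ± 7.5 CPM in noncystic Pkd2+/+ through 32.8 ± 2.0 in cystic Pkd2+/+ to 49.97 ± 6.7 in cystic Pkd2Δ17/Δ17 kidneys (SD, n = 3), and the noncystic Pkd2Δ17/Δ17 mean was 66.02 ± 7.6. For Kcnn1 the means in that order were 9.100 ± 1.7, 5.48 ± 1.0 and 10.5 ± 1.7 CPM, for Kcnf1 they were 7.72 ± 0.44, 2.18 ± 0.66 and 5.23 ± 2.4 CPM, for Kcnip2 9.09 ± 0.76, 3.41 ± 0.84 and 6.09 ± 1.4 CPM, and for Kcnt1 12.1 ± 3.9, 6.03 ± 1.2 and 13.4 ± 5.1 CPM. Markers also moved between the cystic groups. Of thick ascending limb markers 3 of 5 were higher (summed CPM 1687 to 2353 in Pkd2+/+ and 3480 to 3605 in Pkd2Δ17/Δ17), of proximal tubule markers 2 of 7 were higher (2291 to 3507 and 3070 to 4354), of macrophage markers 3 of 6 were lower (283 to 392 and 216 to 271), and of endothelial markers 1 of 5 was higher. The part of these shifts in the 5 calls was not tested. Of the 42 partner genes tested, 1 passed, Fxyd5, which was lower, against 2.23% of all genes tested.

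In noncystic kidneys the deletion changed 0 of 82 members by edgeR's test, against 0.00406% of all genes tested, and limma-trend and DESeq2 also called 0. At an unadjusted p under 0.05, 3 of 82 members were found, against 1556 of 24642 genes (6.31%). These were Kcnt1, Kcnh7 and Kcnk13, with edgeR adjusted p = 0.771 for each. The groups of 5 of 82 members did not overlap, against 2657 of 24642 genes (10.8%). Kcnt1 was at 16.1, 8.33 and 11.8 CPM in noncystic Pkd2+/+ and 12.6, 22.2 and 20.1 CPM in noncystic Pkd2Δ17/Δ17 mice, overlapping groups. Kcnj16 was at 537, 539.6 and 544 CPM and Kcnj15 at 492, 539.8 and 462 CPM in noncystic Pkd2Δ17/Δ17 mice, within or next to the range of the Pkd2+/+ mice. Of the 42 partner genes, 0 passed.

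The test of whether the deletion acted differently in cystic and noncystic kidneys called 0 of 82 members by edgeR, against 0.0122% of all genes. At an unadjusted p under 0.05, 16 of 82 members were found, against 2053 of 24642 genes (8.33%). By limma-trend 0 were called and by DESeq2 1, Kcnn1 (DESeq2 adjusted p = 0.0248). For the 5 members called in cystic kidneys, the interaction on the log2 scale was 1.32 ± 0.40 for Kcnf1, 1.11 ± 0.27 for Kcnn1, 0.77 ± 0.28 for Kcnip2, 0.55 ± 0.39 for Kcnt1 and 0.38 ± 0.16 for Kcnk5 (SE), with edgeR adjusted p of 0.351, 0.215, 0.464, 0.764 and 0.551. With no cutoff on low counts, edgeR called it for Kcnn1 (adjusted p = 0.00244) and Kcnf1 (adjusted p = 0.00271). A difference between the 2 settings thus passed for none of the 5 in the edgeR fit with the cutoff, and for Kcnn1 and Kcnf1 it depended on the tool or cutoff.

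**Figure D3:**
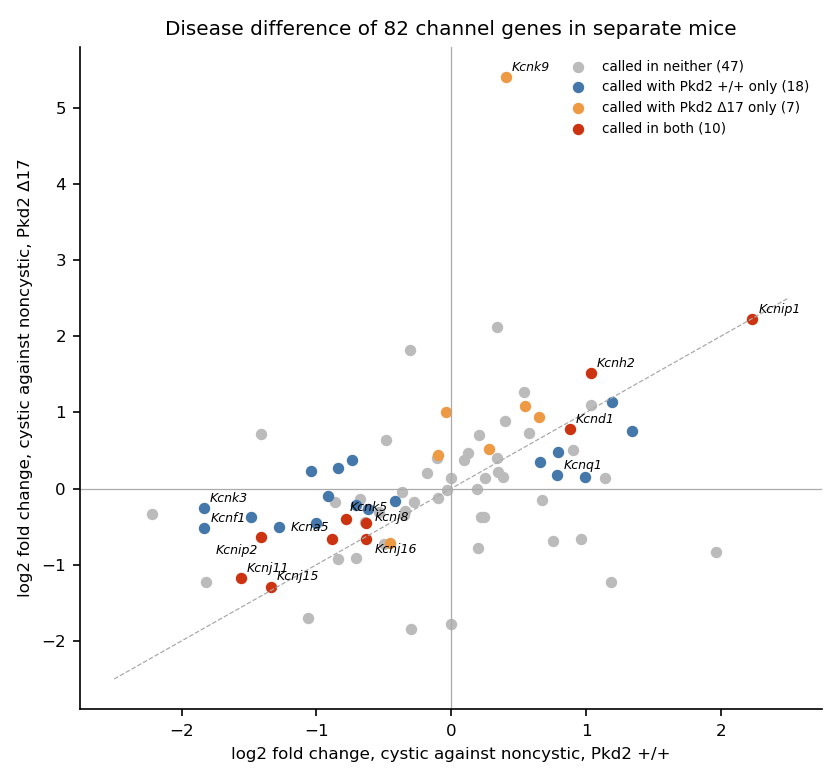
Log2 fold change of 82 members for cystic against noncystic kidneys with Pkd2+/+ (x axis) and with Pkd2Δ17/Δ17 (y axis), 3 mice a group and no mouse in both comparisons. The dashed line marks equal values. The 10 members called in both lie in the lower left or the upper right, and Kcnk9 stands alone at 5.40 on the y axis.

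Cystic and noncystic kidneys were then compared with Pkd2Δ17/Δ17, in 6 other mice. Here 17 of 82 members were called, 9 higher and 8 lower, which is 20.7% against 23% of all genes tested (12.8% higher and 10.2% lower). Among members averaging at least 1 CPM it was 15 of 47 (31.9%), against 35.8%. At an unadjusted p under 0.05, 25 of 82 members were found, against 8080 of 24642 genes (32.8%). The groups of 30 of 82 members did not overlap, against 9335 of 24642 genes (37.9%). With library totals in edgeR the split was 15 higher and 3 lower of 18, and with limma-trend 14 and 3 of 17. Both comparisons called 10 members, all in the same direction. They are 35.7% of the 28 and 58.8% of the 17; over all genes these shares were 63% and 85%. Lower in both were Kcnj16, Kcnj15, Kcnj11, Kcnj8, Kcnk5, Kcnip2 and Kcna5, and higher in both were Kcnh2, Kcnip1 and Kcnd1. With library totals, Kcnj8, Kcnk5, Kcnip2 and Kcna5 kept their direction but not their calls with Pkd2Δ17/Δ17. Across the 82 members the log2 fold changes of the 2 comparisons had a Pearson r of 0.409, and across all genes tested it was 0.418. Genes are not independent replicates, and this is a description.

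With Pkd2Δ17/Δ17, the log2 fold change was -0.66 ± 0.11 for Kcnj16, -1.29 ± 0.16 for Kcnj15 and 2.23 ± 0.57 for Kcnip1 (SE; edgeR adjusted p = 0.000293, 2.74e-05 and 0.00879). Kcnj16 was at 537, 539.6 and 544 CPM in noncystic and 340.0, 353 and 333 CPM in cystic mice, and Kcnj15 at 492, 539.8 and 462 CPM and 213, 209 and 189.7 CPM. Kcnh2 was at 8.23, 5.95 and 6.49 CPM and 20.2, 19.6 and 19.3 CPM, a log2 fold change of 1.51 ± 0.17 (SE; edgeR adjusted p = 8.9e-06). Kcnj11 was at 1.98 CPM in the lowest of the noncystic mice and at 1.202, 0.978 and 1.25 CPM in the cystic mice, a log2 fold change of -1.17 ± 0.27 (SE; edgeR adjusted p = 0.00445). These 5 genes and Kcnj5 kept their calls under every alternative that tested them. Kcnj8, Kcnk5, Kcnip2, Kcna5 and Kcnd1 had log2 fold changes of -0.45, -0.40, -0.64, -0.67 and 0.78 (edgeR adjusted p = 0.0152, 0.0165, 0.0248, 0.0486 and 0.0382), and lost their calls when single mice were left out (adjusted p up to 0.0919, 0.0898, 0.107, 0.206 and 0.119). The mice were mouse 24 or 29 for Kcnj8, mouse 23, 29 or 30 for Kcnk5, mouse 24, 29 or 30 for Kcnip2, mouse 22, 23, 29 or 30 for Kcna5 and mouse 22, 23, 24, 28 or 29 for Kcnd1.

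A further 7 members passed with Pkd2Δ17/Δ17 and not with Pkd2+/+, of which 6 are described. Kcnj5 (Kir3.4), known from heart and adrenal cortex, was at 5.61, 5.24 and 5.28 CPM in noncystic and 12.3, 10.7 and 9.52 CPM in cystic mice, a log2 fold change of 1.01 ± 0.27 (SE; edgeR adjusted p = 0.0105). Its lowest cystic value came from mouse 30, the mouse with the most adrenal transcripts. The Kv4 pore subunits Kcnd2 and Kcnd3 had log2 fold changes of 1.08 ± 0.32 and 0.44 ± 0.13 (SE; edgeR adjusted p = 0.0205 and 0.0187), Kcnmb1, the BK subunit of smooth muscle, 0.94 ± 0.31 (0.0393), and Kcns3, a silent Kv subunit, 0.51 ± 0.17 (0.0363). The calls ended for Kcnd2 without mouse 23, 24, 28 or 29 (log2 fold change 0.83 to 1.06, edgeR adjusted p up to 0.109), for Kcnd3 without mouse 23, 24 or 28 (log2 fold change 0.35 to 0.40, edgeR adjusted p up to 0.0888), for Kcnmb1 without mouse 23, 24, 28 or 29 (log2 fold change 0.70 to 0.90, edgeR adjusted p up to 0.170) and for Kcns3 without mouse 23, 24, 28, 29 or 30 (log2 fold change 0.41 to 0.56, edgeR adjusted p up to 0.155). The interaction in edgeR with the cutoff called none of them.

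Markers moved with this comparison too: all 7 proximal tubule and all 4 distal convoluted tubule markers were lower and all 6 macrophage markers were higher, and 2 of 5 thick ascending limb markers were lower and 1 higher. Markers of principal cells were higher in 3 of 6, of fibroblasts in 4 of 5, and of smooth muscle and pericytes, where Kcnmb1 and Kcnj8 are known, in 2 of 6 (Tagln and Acta2). Markers of podocytes were lower in 4 of 5, of endothelium in 3 of 5, of intercalated cells in 3 of 5 and of red blood cells in 3 of 3. Neuron and glia markers were higher in 1 and lower in 1 of 7, and lymphocyte markers were called in 0 of 6. Of the 6 adrenal markers, 3 were higher (Star, Cyp11b1 and Cyp11b2). Their part in the channel results was not tested. Of the 42 partner genes tested, 8 were higher and 15 lower, against 12.8% of all genes higher and 10.2% lower.

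Kcnk9 (TASK-3), a channel known from the adrenal zona glomerulosa, had the largest log2 fold change of all members, and it came from 1 mouse. It was at 0.109, 0 and 0.055 CPM in noncystic and 0.096, 0.049 and 7.55 CPM in cystic Pkd2Δ17/Δ17 mice, where 7.55 CPM was mouse 30, and at 0, 0.049 and 0.471 CPM in cystic Pkd2+/+ mice, where 0.47 CPM was mouse 27. In the other 10 mice it was at most 0.16 CPM. The log2 fold change was 5.40 ± 1.59 (SE; edgeR adjusted p = 0.0203), and without mouse 30 it was 0.37 (edgeR adjusted p = 0.912). The call also ended without mouse 22, 23 or 24, where the log2 fold change was 6.26, 4.85 and 5.41. The 3 noncystic mice held 2, 0 and 1 reads of Kcnk9, so the fitted value depends on the prior count. Of the adrenal list, Cyp11b1, Cyp11b2 and Star were at 45.2, 36.1 and 117 CPM in mouse 30 and at 6.03, 1.98 and 19.6 CPM in mouse 27, whereas Cyp17a1, Th and Dbh were at most 0.98 CPM in all 12 mice. In the other 10 mice the first 3 were at most 0.24, 0.16 and 6.60 CPM.

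**Figure D4:**
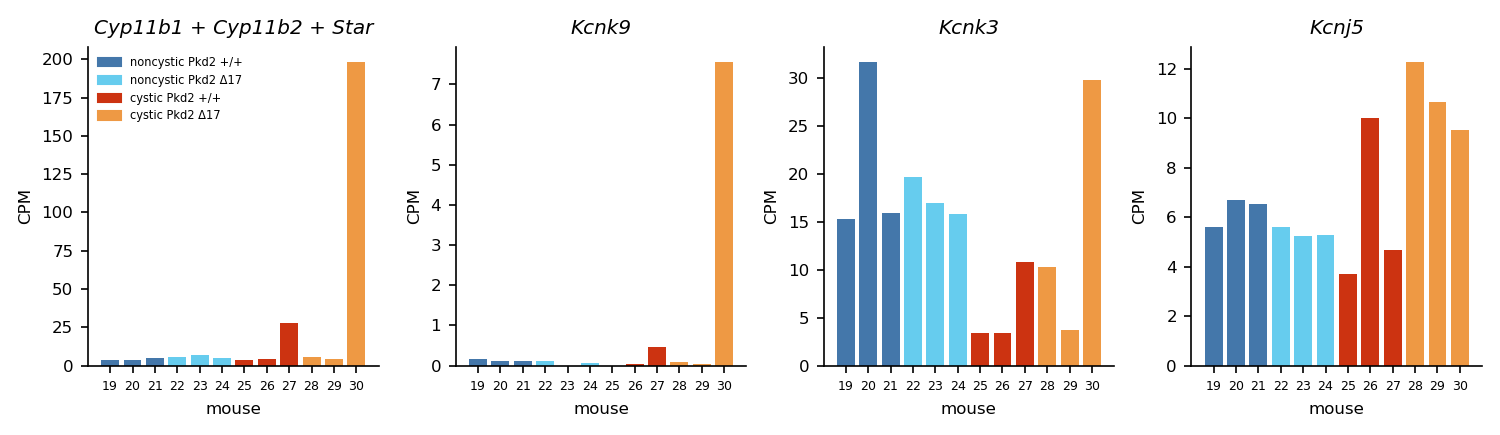
CPM by mouse of 3 adrenal genes summed (Cyp11b1, Cyp11b2 and Star) and of Kcnk9, Kcnk3 and Kcnj5, with bars from 0 coloured by group. The adrenal sum and Kcnk9 are highest in mouse 30 and next in mouse 27; Kcnk3 is highest of the 6 cystic mice in these 2, and Kcnj5 is not.

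Kcnk3, also known from the adrenal cortex, was at 10.3, 3.67 and 29.8 CPM in cystic Pkd2Δ17/Δ17 mice, with mouse 30 again the highest, and at 19.7, 16.96 and 15.8 CPM in noncystic ones. It was not called in this comparison. Without mice 27 and 30, the counts of called members were 24 for cystic against noncystic kidneys with Pkd2+/+, 4 for the deletion in cystic kidneys and 11 for cystic against noncystic kidneys with Pkd2Δ17/Δ17, where Kcnk3 was among the members gained and Kcnk9 among those lost.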

How the data were processed

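RNA was sequenced from whole kidneys of 12 mice, and the authors deposited raw counts per gene: reads were trimmed with Trim Galore 0.6.3, aligned with STAR 2.5.3a to GRCm38 and counted per Ensembl gene. The 4 groups follow the genotype in the labels, which give no sex, and replicates are separate mice. Counts were tested with edgeR 4.0.16 (quasi-likelihood, TMM, 1 mean per group, R 4.3.3) on 24642 genes with an average log2 CPM of at least -3, with Benjamini-Hochberg adjustment over all of them at 0.05. The study used limma-trend, run here as an alternative (limma 3.58.1) beside DESeq2 1.42.0. The script was tested on 3 simulated data sets with 200 changed genes, for cystic against noncystic kidneys with Pkd2+/+ only. At the 0.05 threshold, 6.58% of edgeR, 4.19% of limma-trend and 11.4% of DESeq2 calls were false. Genes without a name (343) held 0.0225% of reads. Within groups, mouse pairs differed by 9.65 to 26.8 times the sampling variance.

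The members, gene lists and rule for named genes were chosen with earlier results of these data known. Named are members with a known kidney role, up to 10 rising and 10 falling members in cystic against noncystic Pkd2+/+ kidneys whose groups did not overlap, members called in the other comparisons and the 5 highest per kilobase. Alternatives were other scalings, cutoffs on low counts, tools and fits, an Xist covariate and omission of single mice. The omission of mice 27 and 30 together was chosen after seeing the data. Pkd1, Kcnj1 and Kcnn4 were not analysed here, and some called genes and sequences are not reported here.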

Additional observations from a re-analysis of the deposited data

Results flagged for a closer look

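By CPM, groups lay in opposite order in 2 settings, without overlap in either, for 2 of the 82 members tested. The share of all genes meeting this double rule was not computed. In single comparisons, the groups of 10.8 to 41.7% of all genes did not overlap. Kcnj3 (Kir3.1), with 41 reads in all 12 mice, had an interaction of -2.42 on the log2 scale. It was at 0, 0.057 and 0.203 CPM in noncystic Pkd2+/+, 0.218, 0.218 and 0.385 CPM in noncystic Pkd2Δ17/Δ17, 0.194, 0.196 and 0.235 CPM in cystic Pkd2+/+ and 0.192, 0.098 and 0.048 CPM in cystic Pkd2Δ17/Δ17 mice. By CPM, every noncystic Pkd2Δ17/Δ17 mouse was above every noncystic Pkd2+/+ mouse, and every cystic Pkd2Δ17/Δ17 mouse was below every cystic Pkd2+/+ mouse. The nearest values of the groups, 0.203 and 0.218 CPM and 0.192 and 0.194 CPM, lie closer than 1 read is worth, about 0.05 CPM. Both separations of Kcnj3 thus depend on the scaling of library sizes. The test of the interaction did not call it (edgeR adjusted p = 0.614). Kcnh7 (ERG3) had an interaction of -0.62 on the log2 scale and was at 6.39, 6.22 and 5.04 CPM, 6.59, 8.18 and 7.92 CPM, 7.82, 6.66 and 6.403 CPM and 4.903, 6.06 and 6.49 CPM in the same order of groups. Its cystic mice were all above the noncystic ones with Pkd2+/+ and all below them with Pkd2Δ17/Δ17. It was not called either (edgeR adjusted p = 0.504), and 696 bases of its exons overlap Gca on the opposite strand.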

How the results depend on the processing

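Among members called in any comparison, all 790 values under alternatives kept their direction, 626 kept their call and 164 did not. The alternatives refit the same mice for members picked by their calls, so a kept direction was largely fixed beforehand. For cystic against noncystic kidneys with Pkd2+/+ (28 calls), alternatives gave 23 to 30 and omission of single mice 20 to 24. For the deletion in cystic kidneys (5 calls), DESeq2 gave 10, no cutoff on low counts 15, the compared groups alone 1, an Xist covariate 3 and omission of single mice 0 to 5, with 0 without mouse 29, 1 without mouse 27 or 28 and 3 without mouse 25. In noncystic kidneys (0 calls), no cutoff gave 1. For cystic against noncystic kidneys with Pkd2Δ17/Δ17 (17 calls), omission of single mice gave 8 to 14, with 8 without mouse 23 or 24 and 9 without mouse 29, and omission of mice 27 and 30 gave 11. For the interaction (0 calls), DESeq2 gave 1, no cutoff 8, and omission of single mice 0 to 1, with 1 without mouse 26. The share of all genes called under each alternative was not computed, so such counts, here and above, have no background beside them. The cause of the changes was not tested. No paired analysis was possible because the groups share no mouse number. With 3 mice a group and totals of 18800307 to 24453033 reads, members under 1 CPM rest on few reads.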
